A study of Gallus gallus with 4 samples.

Results

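The genes described here belong to the interferon pathway and its relatives: the interferons and their receptors, the Janus kinases (JAK), the STAT transcription factors, the SOCS inhibitors, the interferon regulatory factors (IRF), and target genes of the IFI, TRIM and PARP families with MX1, OASL, RSAD2 and EIF2AK2. They were chosen by gene symbol with no cut on their values, although earlier results of these data were known. IRF4, IRF8 and the Toll-like receptors were left out, and each gene was represented by its probe set with the highest mean log2 value over the 4 arrays. This gave 83 genes out of 13009 on the array that are named by a single symbol. RNA had been taken from the follicle-associated epithelium (FAE), which covers the lymphoid follicles of the chicken bursa of Fabricius, and from the interfollicular epithelium (IFE) between the follicles, with 2 samples of each. All samples came from healthy Line-M chicks, 19 days old and kept specific-pathogen-free (SPF). After 5 min in ink, the bursa was put in EDTA (40 mM, buffered to pH 7.4 by 25 mM Hepes), and the epithelium was picked with a 29G needle. FAE spent 5 min in EDTA at room temperature and IFE 30 min at 37 °C, and for any gene this difference and the kind of epithelium cannot be told apart. The groups follow the sample titles and cell type labels, because the source name of the IFE samples reads FAE. The labels do not say whether the replicates are different birds or pools, and the p-values reflect the spread among these arrays alone, possibly a technical one.

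Interferons are released by cells that sense viral nucleic acid. In birds MDA5, encoded by IFIH1, is a main cytoplasmic RNA sensor, and IRF7 drives interferon genes. Interferon binds a receptor of paired subunits, the bound Janus kinases phosphorylate STAT proteins, and these enter the nucleus and switch on antiviral genes. SOCS proteins are induced by the same signal and shut the kinases down. Type III interferon, or interferon lambda, acts mainly on epithelia. Many of the same kinases, STAT and SOCS genes also serve interleukins and growth factors in leukocytes.

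Of the 83 genes, 68 passed the filter on dim probe sets and were tested, and 15 were too dim. Signals are given on a scale on which each array has a 2% trimmed mean of 500, and signals of different genes are not comparable. FAE and IFE were compared with limma, and a gene was called at an adjusted p under 0.05 after Benjamini-Hochberg adjustment over all 23063 tested probe sets. The log2 fold change is FAE over IFE. In FAE 4 genes rose: IFI30, JAK3, SOCS1 and TRIM39.2. Another 4 fell: IRF1, PARP8, TRIM14 and TRIM36. These are 5.88% of the tested members in each direction, beside 6.31% of all 10388 genes tested that were called higher and 3.94% called lower, so the share of called genes was near that of the array as a whole. Both FAE arrays lay above both IFE arrays for 20 members (29.4%), beside 26.8% of all genes, and below them for 27 members (39.7%), beside 32.3% of all genes. The median log2 fold change was -0.09 over the members and -0.07 over all genes tested. The median size of the change, regardless of sign, was 0.63 and 0.47. With each array at a common median, the median log2 fold change was 0.04 over the members and 0.06 over all genes tested. The counts changed strongly with the array left out, as did those over all genes. Such a fit takes its variance from the pair that is left in the other group. The median absolute log2 difference between replicates was 0.25 in FAE and 0.48 in IFE. The counts therefore cannot show whether a call rests on 1 array. The direction of all 8 called genes stayed the same in the 4 fits that each left out 1 array. This was fixed in advance, because their groups did not overlap. Without the intensity trend in the variance, 0 members were called, beside 2.35% of all genes called higher and 0.46% called lower. With the trend, 28 of the 68 tested members passed an unadjusted limma p of 0.05, beside 2862 of all 10388 genes tested.

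**Figure D1:**
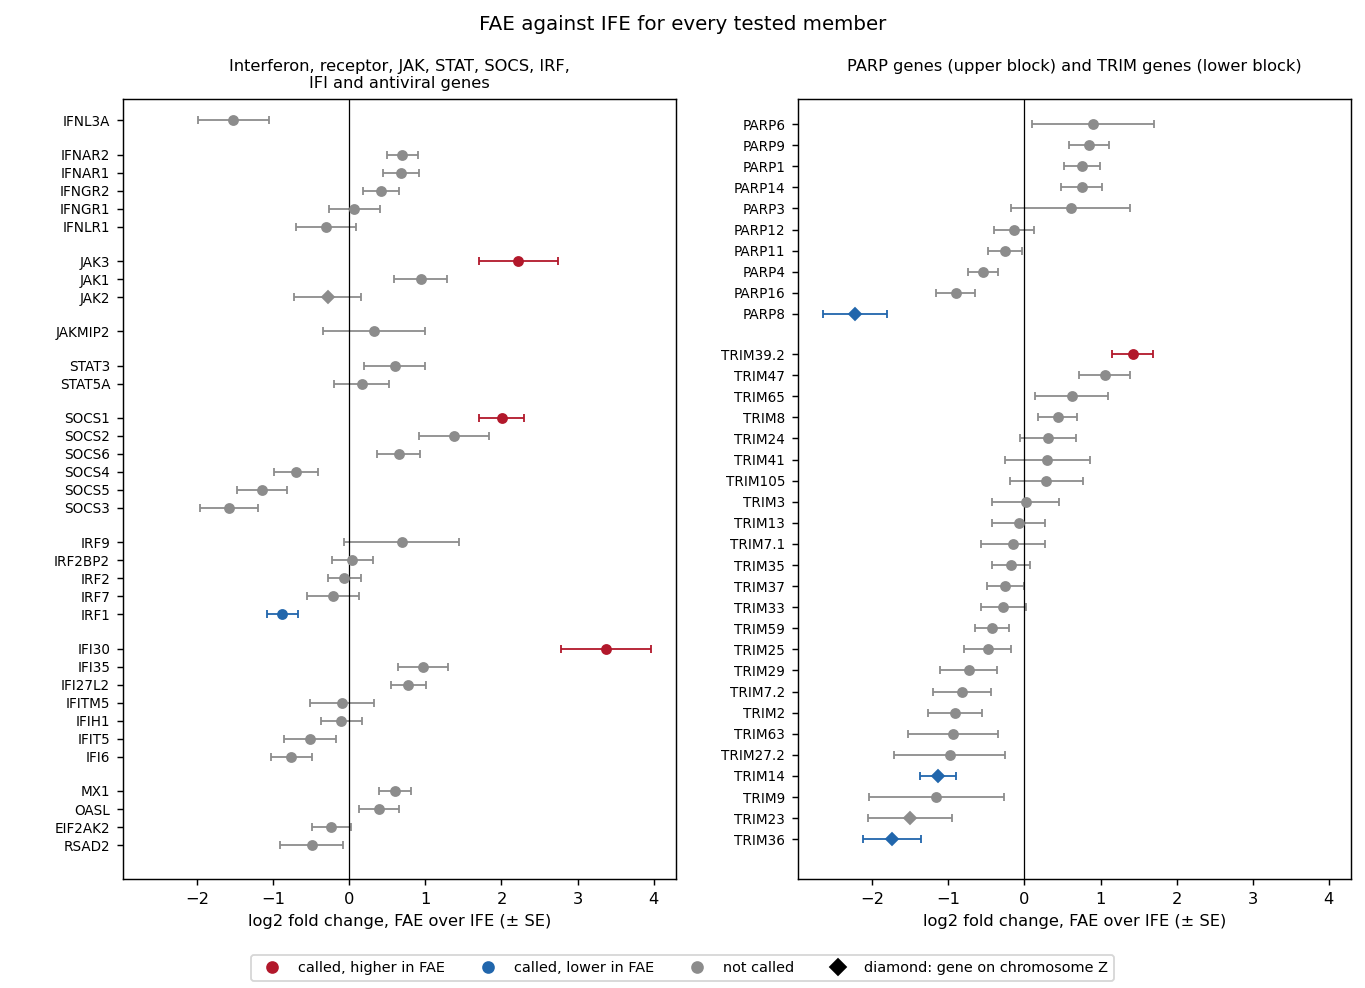
Log2 fold change of FAE over IFE (x axis, bars are the SE of the limma fit) for the 68 tested members, grouped by family down the page. Red symbols are the 4 genes called higher in FAE and blue symbols the 4 called lower, grey symbols were not called, and diamonds lie on chromosome Z.

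Markers of cells other than epithelium were measured in both groups, and several moved with the groups. Of 8 tested B cell markers, 6 were higher in FAE, and the signals of the list summed to 11800.3 and 12249.7 in FAE, against 1742 and 1909.7 in IFE. Such sums weigh the brightest genes of a list most. CXCR5 was the one B cell marker not above background on any array. PAX5 lay the other way, with both FAE arrays below both IFE arrays at -0.85, and was not called. Of 12 tested markers of macrophages and dendritic cells, 8 were higher. Their list summed to 64791 and 52635 in FAE, against 7573 and 5977 in IFE. Each marker of this list was above background on at least 1 array. MARCO lay the other way, with both FAE arrays below both IFE arrays at -0.69, and was not called. T cell markers summed to 4712 and 4039 in FAE, against 2300.4 and 1718 in IFE, with 1 of 5 called and LCK not above background on any. Erythrocyte markers had 1 gene on the array, with 187 and 78.6 in FAE, against 14.1 and 34.2 in IFE. Its log2 fold change was 2.46 and it was not called. Epithelial markers were bright in both groups, summing to 87468 and 113550.0 in FAE, against 157636 and 170905 in IFE, with 1 of 10 called higher (VIL1) and 3 lower. The adhesion genes EPCAM (-0.55) and CDH1 (-0.64) were not called. Early response genes, which handling of tissue can induce, had sums of 59934 and 67095 in FAE, against 159837 and 172401 in IFE. Of 8 tested, 7 were lower in FAE. Over all genes tested, 6.31% were called higher and 3.94% lower. Lastly, IFE replicate 2 had a 3'/5' signal ratio of beta-actin of 31.2, against 14.4 to 18.6 on the other arrays. Its background level was 81.4, against 53.6 to 57.6. In bulk samples, fewer cells of a type and less RNA per cell cannot be told apart.

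**Figure D2:**
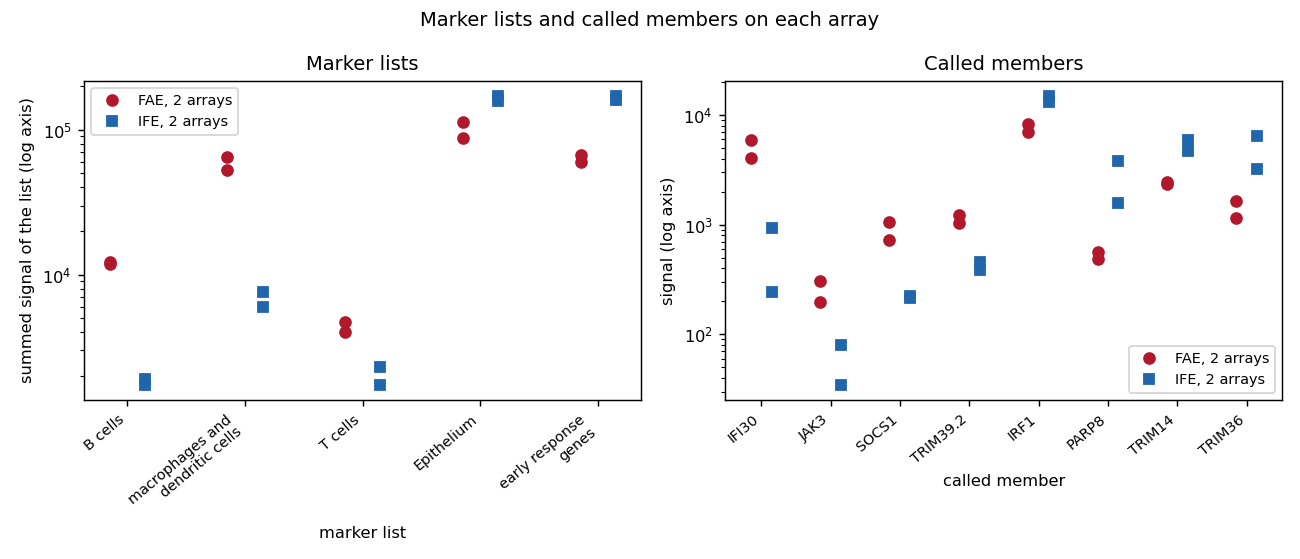
Left, summed signal per array of the marker lists of B cells, macrophages and dendritic cells, T cells, epithelium and early response genes. The sums weigh the brightest genes of a list most. Right, signal of the 8 called members per array, the 4 higher genes first. Both y axes are logarithmic, red circles are the 2 FAE arrays and blue squares the 2 IFE arrays. For each list and each called gene the FAE and IFE arrays do not overlap. The called genes were chosen on these same arrays, so for them this is no separate result.

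Of the 3 interferon genes, only that of interferon lambda was above background. IFNL3A, which encodes chicken interferon lambda, had signals of 70.0 and 103 in FAE, against 164 and 361 in IFE. Both FAE arrays were below both IFE arrays, the log2 fold change was -1.52 (SE 0.47), and the gene was not called (adjusted p = 0.104). Over the 13 alternative fits its adjusted p ranged from 0.00692 to 0.545, lowest without IFE replicate 1. IFNG, interferon gamma, the product of activated T and natural killer cells, was too dim to test, with 20.1 and 39.0 in FAE, against 3.40 and 49.9 in IFE. IFNW1, a type I interferon gene that the reference also lists as interferon beta, had 3.60 and 4.21 in FAE, against 5.20 and 32.2 in IFE and was too dim as well. Neither gene was above background on any array.

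Receptor genes for type I interferon were brighter in FAE by a factor of about 1.6 without reaching the threshold. IFNAR2, the high-affinity subunit, had signals of 8917 and 8068 in FAE, against 4867 and 5617 in IFE, and its log2 fold change was 0.70 (SE 0.21, adjusted p = 0.0929). The partner subunit gene IFNAR1 had 2133 and 2210.2 in FAE, against 1430.0 and 1278 in IFE, with 0.68 (SE 0.24, adjusted p = 0.135). For both genes the groups did not overlap, and their other tested probe sets, 2 for IFNAR2 and 1 for IFNAR1, pointed the same way. The adjusted p of IFNAR2 ranged from 0.0136 to 0.698 over the alternatives, and it passed after quantile normalization (0.0384) and without either IFE replicate. That of IFNAR1 ranged from 0.0167 to 0.719, and it passed only without IFE replicate 1.

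Among the receptors for the other interferons, IFNGR2, the signalling subunit for interferon gamma, had 9194 and 9119 in FAE, against 5700.2 and 8188 in IFE and a log2 fold change of 0.42 (adjusted p = 0.333). It passed only without IFE replicate 2, in a range of 0.0215 to 0.847 over the alternatives. Of its 4 other tested probe sets, 2 had both FAE samples above both IFE samples, the groups of the other 2 overlapped, and none was called. The ligand-binding subunit gene IFNGR1 had 147 and 179.8 in FAE, against 179 and 134 in IFE, and the groups overlapped. IFNLR1, the subunit particular to interferon lambda, had 129.5 and 83.1 in FAE, against 122 and 134 in IFE, and again the groups overlapped. In the gene order of the chicken assembly GRCg7b, IFNAR2, IFNAR1 and IFNGR2 are neighbours on chromosome 1, with IL10RB as the only other protein-coding gene between them. All 3 had the FAE arrays above the IFE arrays, as had 26.8% of all genes tested, and none of them was called.

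**Figure D3:**
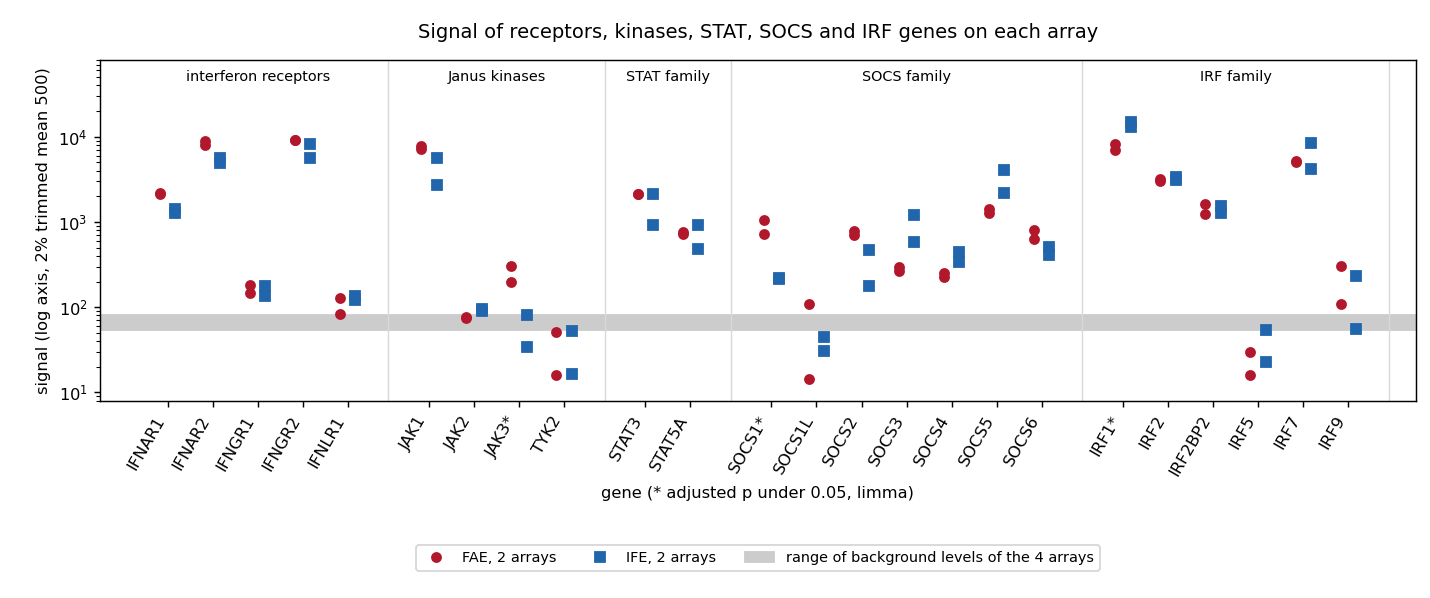
Signal of each array (logarithmic y axis) for the genes of the interferon receptors, Janus kinases, STAT, SOCS and IRF families, with red circles for the 2 FAE arrays and blue squares for the 2 IFE arrays. The grey band spans the background levels of the 4 arrays, 53.6 to 81.4. Stars mark JAK3, SOCS1 and IRF1, the called genes of these families.

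Among the Janus kinases, JAK3 rose. JAK3, the kinase that pairs with the common gamma chain of interleukin receptors in lymphocytes, had signals of 304 and 197 in FAE, against 34.3 and 80.1 in IFE. Neither IFE array was above its background level, and the FAE mean of JAK3 was 3.57-fold above that level. This ratio is a bound from mean signals and carries no sampling error. The fitted log2 fold change of JAK3 was 2.22 (SE 0.52, adjusted p = 0.0468). Its adjusted p ranged from 0.00300 to 0.449, and the call was lost when FAE replicate 1 (0.449), FAE replicate 2 (0.143), the trend (0.108) or the filter (0.0865) was left out. The B cell and macrophage lists had median log2 fold changes of 2.68 and 3.25, and their part in the JAK3 result was not tested.

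JAK1, which serves all 3 kinds of interferon receptor, had 7878 and 7142 in FAE, against 5636 and 2725 in IFE. The groups did not overlap, with IFE replicate 2 lowest, and the log2 fold change of 0.94 (SE 0.35) was not called (adjusted p = 0.161). Over the alternatives its adjusted p ranged from 0.000866 to 0.657, and it passed only without IFE replicate 1, at 1.46, whereas without IFE replicate 2 it was 0.41 (0.131). Of the 2 other tested JAK1 probe sets, 1 had a log2 fold change of 0.89 and was not called, and the other was under background in both IFE samples and in FAE replicate 2. JAK2, a kinase of the interferon gamma receptor, stood just above background with 76.4 and 74.9 in FAE, against 94.5 and 89.3 in IFE. TYK2, the partner of JAK1 at the type I receptor, had 51.2 and 15.8 in FAE, against 52.1 and 16.6 in IFE, was above background on no array and was not tested. Among the 3 JAKMIP genes, which encode proteins that bind Janus kinases and microtubules, JAKMIP2 alone was tested. It had 66.8 and 82.4 in FAE, against 34.8 and 100.2 in IFE, and the groups overlapped. JAKMIP1 and JAKMIP3 were too dim.

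Neither of the 2 STAT genes among the members was called. STAT3, which carries interleukin signals such as that of interleukin-6, had 2156 and 2126 in FAE, against 2152 and 932 in IFE, so that FAE and the first IFE array were alike and IFE replicate 2 was low. Its log2 fold change was 0.60 (SE 0.40, adjusted p = 0.416). Without IFE replicate 1 it was 1.20, and without IFE replicate 2 it was -0.01, at the ends of a range of adjusted p of 0.00270 to 0.983 over the alternatives. The other 2 tested STAT3 probe sets had both FAE samples above both IFE samples, at 0.78 and 1.06, and were not called. STAT5A, a mediator of prolactin, growth hormone and interleukin-2 signals in mammals, had 767 and 731 in FAE, against 929 and 482 in IFE, and both FAE samples lay between the IFE samples (adjusted p = 0.824). STAT5A and STAT3 are next to each other on chromosome 27.

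Of the 6 tested SOCS genes, SOCS1 alone was called, beside 6.31% of all genes called higher and 3.94% lower. The groups did not overlap for any of the 6, with 3 above and 3 below, beside 26.8% of all genes above and 32.3% below. SOCS1, the inhibitor that binds Janus kinases directly and restrains interferon gamma signalling, rose. It had 1049 and 725 in FAE, against 213 and 223 in IFE, that is 887 ± 229 in FAE and 218 ± 7.18 in IFE (SD, n = 2 each), and its log2 fold change was 2.00 (SE 0.30, adjusted p = 0.0108). The adjusted p ranged from 0.00193 to 0.183, and the call was lost when FAE replicate 1 (0.183), FAE replicate 2 (0.0522) or the trend (0.0550) was left out. SOCS1 is expressed in leukocytes too, whose markers were higher in FAE, and their part in the SOCS1 result was not tested. SOCS2, a feedback inhibitor of growth hormone signalling, had 789.9 and 705 in FAE, against 467 and 176 in IFE, and its log2 fold change was 1.38 (SE 0.46, adjusted p = 0.126). The value was 2.08 without IFE replicate 1, which passed, and 0.68 without IFE replicate 2, and the adjusted p ranged from 0.000665 to 0.548. SOCS6, which targets receptor tyrosine kinases, had 795 and 634 in FAE, against 406 and 506 in IFE and was not called (0.65, adjusted p = 0.222). Its adjusted p ranged from 0.0499 to 0.857, lowest without IFE replicate 2.

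SOCS3, SOCS4 and SOCS5 lay below IFE. SOCS3, the feedback inhibitor of interleukin-6 family receptors and STAT3, had 300.03 and 262 in FAE, against 1193 and 587 in IFE, and its log2 fold change of -1.58 (SE 0.38) just missed the threshold (adjusted p = 0.0518). It passed in 8 of 13 alternative fits, with adjusted p from 0.000871 to 0.307, among them quantile normalization (0.0387) and both fits without an IFE sample. SOCS3 is quickly induced, as early response genes are, and that list had a median log2 fold change of -1.995. Its part in the SOCS3 value was not tested. SOCS5, which restrains interleukin-4 and epidermal growth factor signals, had 1436 and 1279 in FAE, against 2206 and 4053 in IFE, with -1.14 (SE 0.33, adjusted p = 0.0872). SOCS5 passed only in the fits without an IFE sample, with adjusted p from 0.000885 to 0.449 over the alternatives. SOCS4, linked to the epidermal growth factor receptor in mammals, had 226 and 251 in FAE, against 445 and 337 in IFE, with -0.70 (adjusted p = 0.204). Its range was 0.0453 to 0.794, and it passed only without IFE replicate 2. SOCS1L, a SOCS1-like gene, was too dim to test, with 14.5 and 108 in FAE, against 44.5 and 30.9 in IFE.

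Of the interferon regulatory factors, IRF1 alone was called. IRF1, a transcription factor induced by interferon gamma that drives antigen presentation genes, fell in FAE. Its signals were 8325 and 6981 in FAE, against 15001 and 13146 in IFE, or 7653 ± 950.1 in FAE and 14073 ± 1312 in IFE (SD, n = 2 each), and the log2 fold change was -0.88 (SE 0.20, adjusted p = 0.0447). The call was close to the threshold, and its adjusted p ranged from 0.00772 to 0.386 over the alternatives. It was lost with quantile normalization (0.0873), with each array at a common median (0.0995), and when the filter (0.111), the trend (0.182), FAE replicate 1 (0.323) or FAE replicate 2 (0.386) was left out. IRF1 is quickly induced by stimuli other than interferon too, and early response genes were lower on the same arrays. Their part in the IRF1 result was not tested.

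The antagonist of IRF1, IRF2, had 3049.7 and 3153 in FAE, against 3110.2 and 3393 in IFE, and the groups overlapped. Its corepressor gene IRF2BP2 had 1627 and 1257 in FAE, against 1262 and 1536 in IFE and overlapped as well. IRF7, which in birds takes the place that IRF3 has in mammals, had 5093 and 5222 in FAE, against 8512 and 4183 in IFE. The FAE arrays were alike and the IFE arrays lay on either side of them. Without IFE replicate 2 the log2 fold change of IRF7 was -0.72, which passed, and without IFE replicate 1 it was 0.30, so the 2 IFE samples gave opposite signs. Its adjusted p was 0.755 with all 4 arrays and ranged from 0.0184 to 0.962. The gene listed as IRF9, with IRF10 as its synonym in the reference table, had 306 and 109 in FAE, against 231 and 55.4 in IFE. Its replicates differed more than its groups. IRF5, a factor downstream of Toll-like receptors in myeloid and B cells, was above background on no array, with 16.02 and 30.1 in FAE, against 22.5 and 53.5 in IFE.

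Targets named for their induction by interferon did not move as 1 block. IFI30 had the largest log2 fold change of the 68 tested members. It encodes GILT, a lysosomal thiol reductase of antigen-presenting cells, and had 5909 and 4079 in FAE, against 928 and 241 in IFE. The log2 fold change was 3.38 (SE 0.59, adjusted p = 0.0188), which is 10.4-fold higher in FAE. The 2 IFE arrays were far apart, and the value was 4.35 without IFE replicate 1 and 2.40 without IFE replicate 2. The adjusted p ranged from 5.22e-05 to 0.109, and the call was lost when FAE replicate 1 (0.109) or the trend (0.0910) was left out. Markers of macrophages and dendritic cells, the cells in which GILT is best known, had a median log2 fold change of 3.25 on the same arrays, and their part in the IFI30 result was not tested.

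The other IFI genes were not called. IFI27L2, the chicken ISG12-1 gene, had 6687 and 5136 in FAE, against 3480.2 and 3377 in IFE (0.77, adjusted p = 0.0945), and IFI6, listed with the synonym ISG12-2, lay on the other side with 476 and 595 in FAE, against 910.2 and 892 in IFE (-0.76, adjusted p = 0.140). Both belong to a family of small hydrophobic proteins induced by interferon, and the groups overlapped for neither. Adjusted p ranged from 0.0242 to 0.752 for IFI27L2, which passed only in the fits without an IFE sample, and from 0.0483 to 0.7997 for IFI6, which passed only without IFE replicate 1. IFI35, a regulator of innate signalling, had 2533 and 2174 in FAE, against 1611 and 899.6 in IFE (0.96, adjusted p = 0.132), and passed only without IFE replicate 1, in a range of 0.00194 to 0.685. The RNA sensor gene IFIH1 had 299.5 and 296 in FAE, against 301 and 341 in IFE, and its log2 fold change was -0.10 (SE 0.27). IFIT5, which binds viral RNA ends, had 136 and 107 in FAE, against 163 and 182 in IFE, with -0.51 (adjusted p = 0.408). IFITM5, a bone-related member of the interferon-induced transmembrane family, stayed near background with 86.1 and 92.5 in FAE, against 87.4 and 104 in IFE.

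None of the 4 classical antiviral effectors was called. The groups did not overlap for any of them, with 2 above and 2 below, beside 26.8% of all genes above and 32.3% below. MX1, the GTPase that blocks virus replication in mammals, had 5060.5 and 4901 in FAE, against 3219 and 3340.0 in IFE, and its log2 fold change was 0.60 (SE 0.21, adjusted p = 0.138). Replicates of MX1 were close. Its adjusted p ranged from 0.0343 to 0.760, and it passed only in the fits without an IFE sample. OASL, the chicken oligoadenylate synthetase gene, had 436 and 436 in FAE, against 312 and 355 in IFE, with 0.39 (adjusted p = 0.426). Below IFE were EIF2AK2, which encodes the RNA-activated kinase PKR, with 689 and 653 in FAE, against 796 and 783 in IFE (-0.23, adjusted p = 0.620), and RSAD2, or viperin, with 83.9 and 73.1 in FAE, against 109 and 112 in IFE (-0.50, adjusted p = 0.518). All 4 differed by less than 2-fold. Their median log2 fold change was 0.08, and quantile normalization turned it to -0.06.

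PARP genes encode ADP-ribosyltransferases, some of which are interferon-induced. Of 10 tested, PARP8 alone was called, beside 6.31% of all genes called higher and 3.94% lower. PARP8 fell in FAE. Its signals were 485 and 559.8 in FAE, against 1565 and 3779 in IFE, and its log2 fold change was -2.22 (SE 0.42, adjusted p = 0.0250), that is, 4.67-fold higher in IFE. Of 3 other tested PARP8 probe sets, 1 was under background in FAE, 1 was not called, and 1 was called, at -1.45 (adjusted p = 0.0301). IFE replicate 2 was far above IFE replicate 1. The adjusted p ranged from 0.000116 to 0.189, and the call was lost when FAE replicate 1 (0.189), FAE replicate 2 (0.100) or the trend (0.101) was left out. PARP1, a DNA damage sensor, had 2543 and 2891 in FAE, against 1481 and 1734 in IFE (0.76, adjusted p = 0.110). Further members were PARP4, part of the vault particle, with 5395 and 5901 in FAE, against 7884 and 8544 in IFE (-0.54, adjusted p = 0.159), and PARP16, an enzyme of the endoplasmic reticulum, with 1249 and 1219.6 in FAE, against 2680.3 and 1989 in IFE (-0.90, adjusted p = 0.0851). Of 5 other tested PARP4 probe sets, 3 pointed the same way, those at 0.24 and 0.15 pointed the other way, and none was called.

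PARP1 and PARP16 passed only in the fits without an IFE sample, with adjusted p from 0.0146 to 0.635 for PARP1 and from 0.00488 to 0.588 for PARP16 over the alternatives. PARP4 ranged from 0.0329 to 0.792 and passed only without IFE replicate 1. PARP11, a mono-ADP-ribosyltransferase, had 2983 and 3014 in FAE, against 3274 and 3879 in IFE, with -0.25. The interferon-induced genes PARP9 and PARP14, named after their values were seen, are separated on chromosome 7 only by DTX3L, whose protein partners PARP9. PARP9 had 521 and 494 in FAE, against 296 and 267 in IFE (0.85, adjusted p = 0.107), and PARP14 had 1653 and 1557 in FAE, against 1105 and 823 in IFE (0.75, adjusted p = 0.144). Between them, DTX3L had 3479.8 and 3428 in FAE, against 4210.0 and 3145 in IFE, with -0.08, and its groups overlapped. PARP3, PARP6 and PARP12 had overlapping groups and were not called, and PARPBP, which encodes a partner of PARP1 rather than an enzyme, was too dim.

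The TRIM family, ubiquitin ligases of which several act in antiviral sensing, had 24 tested members, of which 1 was higher, 2 lower and 21 not called. Over all genes tested, 6.31% were called higher and 3.94% lower. TRIM39.2 lies on chromosome 16, which carries the chicken major histocompatibility complex (MHC), and its mammalian relative TRIM39 is a ubiquitin ligase. It had 1027 and 1226 in FAE, against 453 and 386 in IFE, and its log2 fold change was 1.42 (SE 0.27, adjusted p = 0.0244). Its probe set may also detect related transcripts, and without such probe sets another one stood for it, with 199.5 and 128 in FAE, against 139 and 46.8 in IFE, at 0.98 (adjusted p = 0.349). The call was also lost with the mean of its probe sets (0.0882) and when the trend (0.0853), FAE replicate 1 (0.260) or FAE replicate 2 (0.268) was left out, in a range of 0.00201 to 0.349. Of the other 5 TRIM genes of chromosome 16, TRIM27.1 was not tested, and TRIM27.2, TRIM41, TRIM7.1 and TRIM7.2 were not called, at -0.98, 0.30, -0.15 and -0.82. Another tested probe set of TRIM7.1 was at 1.20 and was not called.

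TRIM36, a ubiquitin ligase linked to microtubules in mammals, fell to 1140.0 and 1641 in FAE, against 3208 and 6473 in IFE, and its log2 fold change was -1.74 (SE 0.38, adjusted p = 0.0381). Of its 2 other tested probe sets, 1 was called too, at -2.05 (adjusted p = 0.0360). The other was not called and was under background in both FAE samples. Its IFE mean was 2.50-fold above that background level, a bound without sampling error. For the probe set that stands for TRIM36, the adjusted p ranged from 0.000623 to 0.332, and the call was lost when FAE replicate 1 (0.332), FAE replicate 2 (0.107) or the trend (0.130) was left out. TRIM14, an adaptor of mitochondrial antiviral signalling in mammals, fell to 2322 and 2449 in FAE, against 5894 and 4643 in IFE (-1.13, SE 0.23, adjusted p = 0.0318). The probe sets of TRIM14 disagreed: the 2 others gave -0.42 and 0.06, and the mean over all 3 gave -0.50 (adjusted p = 0.566). TRIM14 also lost its call with a common median (0.0797) and when the trend (0.125), FAE replicate 1 (0.399) or FAE replicate 2 (0.247) was left out, in a range of 0.00185 to 0.566.

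Among TRIM genes not called, TRIM25, the ligase that activates RNA sensing, had 1902 and 1669 in FAE, against 1917 and 3241 in IFE (-0.48, adjusted p = 0.393). IFE replicate 1 was close to FAE and IFE replicate 2 was higher. The other tested probe set of TRIM25 was at 0.51, with both FAE arrays above both IFE arrays, and was not called. TRIM25 passed only without IFE replicate 1, in a range of 0.0119 to 0.987. TRIM8, a regulator of SOCS1 in mammals, had 4068 and 2974 in FAE, against 2760.4 and 2382 in IFE (0.44, adjusted p = 0.350). Its other tested probe sets were at 0.20 and -0.76 and were not called. TRIM59, TRIM37 and TRIM35 lay between -0.43 and -0.18, and none passed in any alternative fit. Another tested probe set of TRIM37 was at 1.87, with both FAE arrays above both IFE arrays, and was not called. Those of TRIM35 were at 0.11 and -0.33 and were not called. TRIM65, which ubiquitinates MDA5 in mammals, had 993 and 1016 in FAE, against 1103 and 387 in IFE. Its other tested probe set was at -1.23, was under background in both FAE samples and was not called. The neighbour of TRIM65 on chromosome 18 is TRIM47, named after its values were seen. TRIM47 had 1121 and 1044 in FAE, against 388 and 701 in IFE (1.05, adjusted p = 0.117). TRIM65 passed only without IFE replicate 1, at 1.38 in a range of adjusted p of 0.00246 to 0.857, and without IFE replicate 2 it was -0.13. The other 9 tested TRIM genes outside chromosomes 16 and Z were not called, with log2 fold changes from -1.16 (TRIM9) to 0.31 (TRIM24). They were TRIM2, TRIM3, TRIM9, TRIM13, TRIM24, TRIM29, TRIM33, TRIM63 and TRIM105. Another 7 were too dim: TRIM27.1, TRIM28, TRIM42, TRIM50, TRIM54, TRIM55 and TRIM66. Over the 24 tested TRIM genes, both FAE samples were above both IFE samples for 4 and below them for 12, beside 26.8% and 32.3% of all genes.

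Of the 4 genes called lower, PARP8, TRIM14 and TRIM36 lie on chromosome Z, a sex chromosome of birds. All 5 tested members on chromosome Z had both FAE samples below both IFE samples, as had 38.6% of all 474 tested genes of that chromosome and 32.3% of all genes. TRIM23 was at -1.50 (adjusted p = 0.156) and JAK2 at -0.28, and neither was called. Over the 62 tested members that the annotation places on autosomes by identifier, which leaves out PARP14, 4 were called higher and 1 lower (IRF1), with a median of -0.02. Over all 474 tested genes of chromosome Z, 4.85% were called higher and 5.27% lower, and the median was -0.18. Over 9786 tested autosomal genes these shares were 6.44% and 3.86%, with a median of -0.06. Relative to the median of chromosome Z, PARP8 was at -2.05, TRIM36 at -1.56, TRIM23 at -1.32, TRIM14 at -0.96 and JAK2 at -0.10. At or below PARP8 lay 8 of the 474 genes, itself included, at or below TRIM36 18, and at or below TRIM14 46. The array also tested 7 genes that the annotation places on the female-specific chromosome W, with a median log2 fold change of 0.01, 1 called higher and 1 lower. This median hides that these genes did not move together. HINTW, the higher one, had 818 and 425 in FAE, against 6.90 and 14.2 in IFE, both under background. NEDD4L, the lower one, had a log2 fold change of -1.71. HNRNPKL had 122 and 104 in FAE, against 38.1 and 35.5 in IFE (1.62). UBAP2L2 had 71.5 and 122 in FAE, against 47.3 and 43.7 in IFE (1.04). Both were above background on each FAE array and under it on each IFE array, and neither was called. MBD2 (0.01), LOC427025 (-0.08) and LOC425347 (-0.23) were not called either. The labels do not give the sex of the birds, and its part in the values of chromosome Z was not tested.

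**Figure D4:**
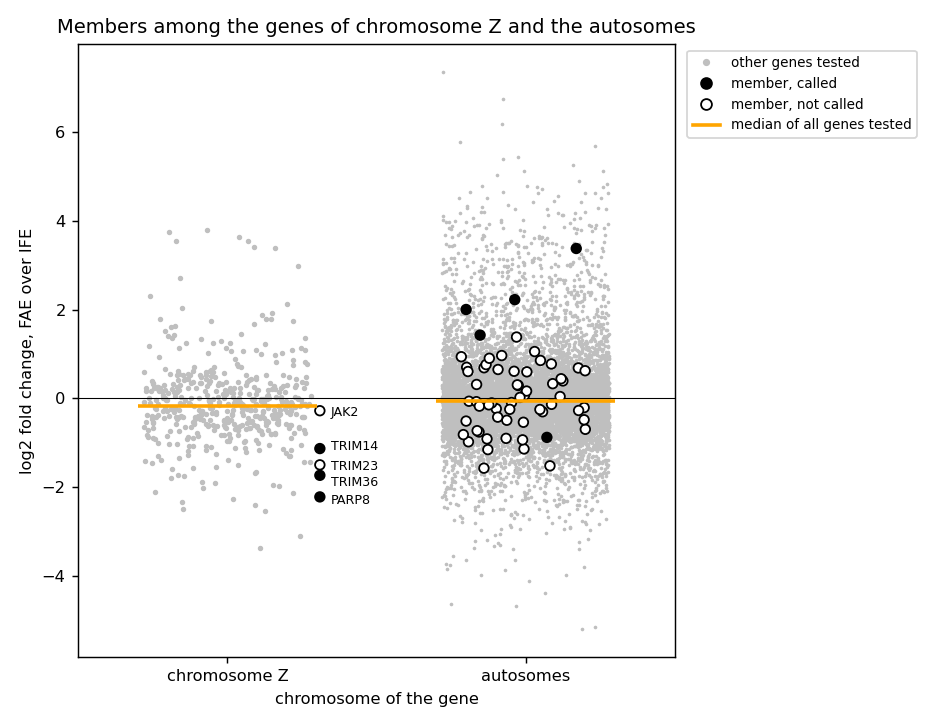
Log2 fold change of FAE over IFE (y axis) for the tested genes of chromosome Z, left, and the autosomes, right. Grey points are other genes, black circles called members, white circles members not called, orange lines the medians of -0.18 and -0.06, and the sideways position within a group carries no value except that the members on Z are set to the right. All 5 members on Z lie below 0.

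Genes of the pathway outside these families were read from 3 lists, which gave 66 genes on the array, 63 of them tested. Of these, 3 were higher in FAE and 1 was lower, beside 6.31% and 3.94% of all genes tested, and the median log2 fold change was 0.12. TMEM173, which encodes STING, the adaptor of cytoplasmic DNA sensing, rose to 720.3 and 617 in FAE, against 261 and 180.1 in IFE (1.62, SE 0.30, adjusted p = 0.0244). It was the only call among 19 sensors and adaptors. CGAS, the sensor upstream of STING, had 1820.3 and 1812 in FAE, against 1662 and 1615 in IFE (0.15), and the mitochondrial adaptor gene MAVS had 261 and 248 in FAE, against 318 and 403 in IFE (-0.49).

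Among 17 tested regulators of JAK and STAT signalling, both called genes encode phosphatases of leukocytes. PTPRC, or CD45, rose to 1782 and 1516 in FAE, against 125 and 193 in IFE (3.40, adjusted p = 0.00257). PTPN6, or SHP-1, rose to 5335 and 4517 in FAE, against 2264 and 1219.8 in IFE (1.56, adjusted p = 0.0349). Among 27 tested further interferon targets, SAMHD1, a nucleotide hydrolase that restricts viruses, fell to 10903 and 12600.2 in FAE, against 21703 and 22463 in IFE (-0.91, adjusted p = 0.0283). The counts of 3 higher and 1 lower calls changed with the array left out, as did those over all genes.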

How the data were processed

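RNA of 4 samples, 2 FAE and 2 IFE, was amplified by a 2-cycle protocol, labelled with biotin and hybridised to a chicken Affymetrix array, per the labels' protocols. The authors deposited linear array intensities. MAS5 is named in the submitters' processing notes; its version is not given in the sources used here. The median of every array was 1 as deposited, and the lowest value 0.01. Each array was rescaled here to a 2% trimmed mean of 500, and log2 was taken with no offset. Of 38535 probe sets, 96 controls were left out. Probe sets with a mean signal under the 40th percentile (55.5) were not tested, which left 23063. The groups were compared, two-sided, by limma 3.58.1 under R 4.3.3, using lmFit, then eBayes in which the prior variance follows intensity, with Benjamini-Hochberg adjustment, and its steps were tested on simulated data. Background was the 95th percentile of 744 unnamed probe sets without the chicken prefix. A gene at or under it on both arrays of a group has only a bound there, set by that level and without sampling error. Symbols come from the platform annotation, and the members' symbols equal those in the table of assembly GRCg7b where their identifiers are listed. No depth exists for arrays, and n = 2 limits the precision.

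The members and lists were chosen with earlier results of these data known. Named are all members of the IRF, STAT, JAK, SOCS, IFN and IFI families and the antiviral effectors, called TRIM and PARP members, and those with the highest mean log2 value among the rest (6 TRIM, 4 PARP), and every called gene of the other lists. Names outside this rule, picked after values were seen, are PARP3, PARP6, PARP9, PARP12, PARP14, PARPBP, TRIM23, TRIM47, DTX3L, CGAS and MAVS. So are the genes of chromosome W, the TRIM genes of chromosome 16 other than TRIM39.2 and the TRIM genes listed by name alone. The marker lists also lie outside the rule. From them, PAX5, MARCO, CXCR5, LCK and VIL1 were named for their values. A planned search for response motifs in promoters was not run, as no promoter sequence was at hand. Alternatives are given in the closing section.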

Additional observations from a re-analysis of the deposited data

How the results depend on the processing

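All 8 called members kept their direction in each of 13 alternative fits. In the 4 fits that each left out 1 array this was fixed in advance, as the groups of these genes did not overlap. The block, the filters and the trend leave the fold change itself unchanged. All 8 calls were kept with the filter at the 60th percentile, with an offset of 16 and in both fits lacking an IFE array, 7 with quantile normalization, 6 with a common median, 6 with no filter, 7 when probe sets that may cross-hybridise were left out, 6 with the mean of a gene's probe sets, 0 without the trend, and 0 and 1 when FAE replicate 1 or 2 was left out. Leaving out 1 array gave 0 to 18 members higher and 0 to 11 lower, and 1 to 18 other pathway genes higher and 0 to 4 lower; these fits assume that the lone sample of an arm varies like the others, and keep the probe sets tested with 4 arrays. Over all genes the share called higher was 1.15% and 2.30% when FAE replicate 1 or 2 was left out and 18.0% and 11.9% for IFE replicate 1 or 2, beside 6.31% with all arrays, so the members' counts moved with those of the whole array. Without the trend 0 members were higher and 0 lower, and 1 and 0 other pathway genes, beside 2.35% and 0.46% of all genes. With a common median 2 members were lower, and 2 other pathway genes were, beside 2.83% of all genes called lower. That scaling moved the median of all genes by 0.13, and the sign of IFIH1, IFITM5, IRF2 and TRIM13 changed with it, as did that of IFITM5 and IRF2BP2 with quantile normalization. The lower call among other pathway genes (SAMHD1) was lost, leaving 0, with quantile normalization and with no filter. On probe sets not prone to cross-hybridise the count was 0 as well. SAMHD1 has no such probe set, so it was not tested in that fit. The mean of all probe sets called 5 other pathway genes higher, beside 5.93% of all genes. PARP6 reversed: on those probe sets another one stood for it, at -2.33 (adjusted p = 0.0231), against 0.90 (0.546).

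The deviations of same-numbered samples from their group means correlated at 0.02. This is a single value over the probe sets, and it cannot show whether these samples share a bird or a batch. With the replicate number as a block, 5 members were higher and 6 lower, 4 and 4 of them those called without it, and 8 and 3 other pathway genes. Over all genes that fit called 7.77% higher and 6.25% lower, beside 6.31% and 3.94% without the block. Except where a fit used other probe sets or fewer samples, the cause of these changes was not tested. What stays under background limits JAK3, and also TYK2, IRF5, IFNG and IFNW1, whose levels could not be compared.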

Other observations

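PARP6 had tested probe sets with fitted values of opposite sign. The one that stands for it had overlapping groups, with 160.2 and 215 in FAE, against 252 and 39.2 in IFE. Its IFE replicate 2 was under background. Another had 37.3 and 53.6 in FAE, against 273 and 186 in IFE. This is a log2 fold change of -2.33 (limma, adjusted p = 0.0244). Both FAE samples were under background, so that fitted value is no bound. The IFE mean of this probe set was 4.16-fold above that background level, a bound without sampling error. No direction can be given for PARP6 from these arrays.

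The 2 IFE samples of IRF7 lay on either side of FAE, and other members differed widely between the IFE samples. As examples, JAK1, STAT3, IFI35 and TRIM65 had the higher signal on IFE replicate 1, and SOCS5, TRIM25, TRIM36 and PARP8 on IFE replicate 2. They were picked with no rule, so their split between the replicates carries no meaning. IFI30, SOCS2, SOCS3, IRF9 and PARP3 were also higher on IFE replicate 1, and IFNL3A on IFE replicate 2. The 3'/5' ratio of beta-actin also differed between these samples, at 15.99 on IFE replicate 1 and 31.2 on IFE replicate 2. Its part in these values was not tested.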
